A study of Mus musculus with 9 samples.

Results

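The 10 genes described here encode enzymes that turn over arginine, its methylated form dimethylarginine, nitric oxide and the polyamines: Ddah1, Ddah2, Arg1, Arg2, Ass1, Asl, Nos2, Odc1, Srm and Sat1. They are 10 of the 24421 genes counted by RNA-seq in 9 libraries. All came from 4T1, a mammary carcinoma line of BALB/c mice that spreads to the lung. Cells were cultured for 5 days in 1 of 3 ways, with 3 libraries for each. These were 2D monolayers with 75 µM palmitate added to the medium, 3D spheroids grown on soft agar with 75 µM palmitate added, and 3D spheroids without added palmitate. Palmitate is a saturated fatty acid, and it was added on top of the fatty acids that the serum of the medium already supplied. According to the methods it was given bound to albumin, and cultures without it received the carrier alone. Only this line was used. Monolayers without palmitate are not analysed here, which leaves the difference that palmitate makes in 2D untested. The labels do not say that the 3 libraries of a condition came from separate cultures, so the p-values measure the spread between these libraries.

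The genes were chosen by name with results of these same libraries known, and Ddah1 was put on the list for its measured levels in the 3 conditions. Which comparison was looked at is not recorded, so both count as used. The levels and fold changes of the 10 genes are therefore given as a description, with no test. Of 77 other genes of the same pathways, 60 were tested. Their lists were also drawn up with earlier results of these data known. Most genes named from them are the up to 3 per list with the smallest p. Their p-values are therefore not independent support.

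Arginine enters cells through cationic amino acid carriers and stands at a branch point. Nitric oxide synthases convert it to nitric oxide and citrulline, and arginases split it into urea and ornithine, which Odc1 turns into the first polyamine. When methylated proteins are degraded they release asymmetric dimethylarginine, an inhibitor of the nitric oxide synthases, and the enzyme Ddah1 hydrolyses it. Ddah2 is its paralog, whose own activity on this molecule is debated. Argininosuccinate synthase and lyase rebuild arginine from citrulline, and the polyamines are needed for cell growth.

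The stretches just upstream of 4 of the genes are printed because they form the pairs that the values below turn on. Ddah1 and its paralog Ddah2 are shown first, followed by Odc1 and Sat1, which stand at the entry of the polyamine route and at its breakdown. The sequences are from RefSeq on GRCm38.p6, whose promoter table held 5 of the 10 genes, and each run ends at the base before the annotated start of the gene. They are written 5′ to 3′ on the strand of the gene, and capitals mark each match to the GC box GGGCGG on either strand.
Ddah1, chr3:145758442-145758674, plus strand: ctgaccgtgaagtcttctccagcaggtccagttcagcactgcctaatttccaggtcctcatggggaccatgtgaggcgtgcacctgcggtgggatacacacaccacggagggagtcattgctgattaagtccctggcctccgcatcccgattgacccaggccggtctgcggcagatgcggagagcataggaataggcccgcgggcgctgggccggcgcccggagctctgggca
Ddah2, chr17:35058785-35059034, plus strand: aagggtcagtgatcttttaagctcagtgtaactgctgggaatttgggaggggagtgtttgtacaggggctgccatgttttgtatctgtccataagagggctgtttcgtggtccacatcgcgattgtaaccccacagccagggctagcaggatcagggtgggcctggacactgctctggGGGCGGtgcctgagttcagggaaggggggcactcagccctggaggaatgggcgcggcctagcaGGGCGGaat
Odc1, chr12:17544623-17544793, plus strand: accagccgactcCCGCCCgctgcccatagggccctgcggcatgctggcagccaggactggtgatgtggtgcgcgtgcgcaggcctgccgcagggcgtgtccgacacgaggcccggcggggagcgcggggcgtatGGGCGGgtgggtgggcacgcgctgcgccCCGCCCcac
Sat1, chrX:155216450-155216699, minus strand: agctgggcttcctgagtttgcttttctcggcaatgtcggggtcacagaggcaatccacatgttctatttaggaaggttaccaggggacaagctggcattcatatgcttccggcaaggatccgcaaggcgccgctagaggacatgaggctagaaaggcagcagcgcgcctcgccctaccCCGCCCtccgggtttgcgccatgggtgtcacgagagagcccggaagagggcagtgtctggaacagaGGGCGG
The Ddah1 run of 233 bases held no GC box, whereas the Ddah2 run of 250 bases held 2, the Odc1 run of 171 bases held 3 and the Sat1 run of 250 bases held 2. Of 32851 mouse promoter windows of 250 bases, 32.7% held at least 1. Ddah1 was not poor in G and C, with 63.1% of its bases and 15 CpG dinucleotides, against 58% and 7 for Ddah2. Odc1 had 77.2% and 21, and Sat1 had 59.6% and 15. None of these 4 genes held the E-box CACGTG, the TATA box TATAAA, the CCAAT box CCAAT, the cAMP response element TGACGTCA, the AP-1 site TGANTCA or the antioxidant response element TGACNNNGC on either strand of the 250 bases before the RefSeq start. These motifs were held by 6.02%, 12.4%, 33.8%, 1.55%, 6.75% and 10.2% of all windows, in that order. A match is a run of letters and was not tested for use by any factor.

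Levels are given as CPM, the reads counted on a gene for every 1000000 counted in its library, after TMM scaling of the library sizes. Totals ranged from 6595514 to 31177756 counts, and the smallest library was replicate 3 of the 3D cultures with palmitate. A gene with 3 counts had between 0.0961 and 0.459 CPM. Rn45s, a ribosomal RNA precursor, took 1.77% to 5.38% of the counts. Markers of carcinoma epithelium such as Krt8 and Krt18 were high in all 9 libraries, with summed levels of 3900 to 5190 CPM over 6 markers. Fibroblast markers summed to 33.2 to 34.6 CPM in 2D and 91.7 to 111 CPM in 3D cultures, nearly all of it Pdgfra, with Pdgfrb and Dcn at no more than 1 count. The 2 collagen markers went the other way. Col1a1 was at 2.05 to 2.43 CPM in 2D and 0.304 to 1.62 CPM in 3D, and Col1a2 at 0.929 to 1.57 CPM in 2D and no more than 0.153 CPM in 3D. Leukocyte markers summed to 24.6 to 27.9 CPM in 2D and 7.17 to 11.6 CPM in 3D cultures, nearly all of it Cd68, with Ptprc at no more than 11 counts and Adgre1 at 0 in every library. The 4 endothelial markers summed to no more than 0.579 CPM. Of the 3 receptors that this line is described as lacking, Pgr had at most 2 counts, while Erbb2 was counted at 63.1 to 94.1 CPM and Esr1 at 6.95 to 16.4 CPM. The part of these markers in the results was not tested, and in bulk libraries fewer cells of a type and less RNA per cell cannot be told apart.

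Of the 10 genes, 9 had enough counts to be tested, and Ass1 had not. Called in this report means an adjusted p-value under 0.05 in edgeR's quasi-likelihood test across 12575 genes. In 3D against 2D cultures, both with palmitate, 7 of the 9 genes were called, where 68.3% of all tested genes were called. Arg2 was called higher in 3D, as were 34.5% of all tested genes, and 6 were called lower, as were 33.9% of all. For 8 of the 9 genes the 3 libraries of one condition lay entirely above those of the other, which held for 69.4% of all tested genes. With palmitate against none in 3D cultures, 1 of the 9 genes was called, Ddah1, and it was higher. Of all tested genes 2.19% were called in that comparison, 1.38% higher and 0.811% lower. The number depended on the fit. The program DESeq2 called 3 of the 9 with palmitate, Ddah1, Arg1 and Odc1, among 399 genes. Without replicate 3 of the 3D cultures with palmitate, edgeR called these 3 and Srm, among 1901 genes. It called the same 4 with no filter on low counts, among 617, and with GC and length trends removed, among 982. The groups did not overlap for 5 of the 9 genes and for 18.6% of all tested genes. Nothing is read from these counts, since the genes were chosen with both comparisons known and both share the 3D libraries with palmitate.

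**Figure D1:**
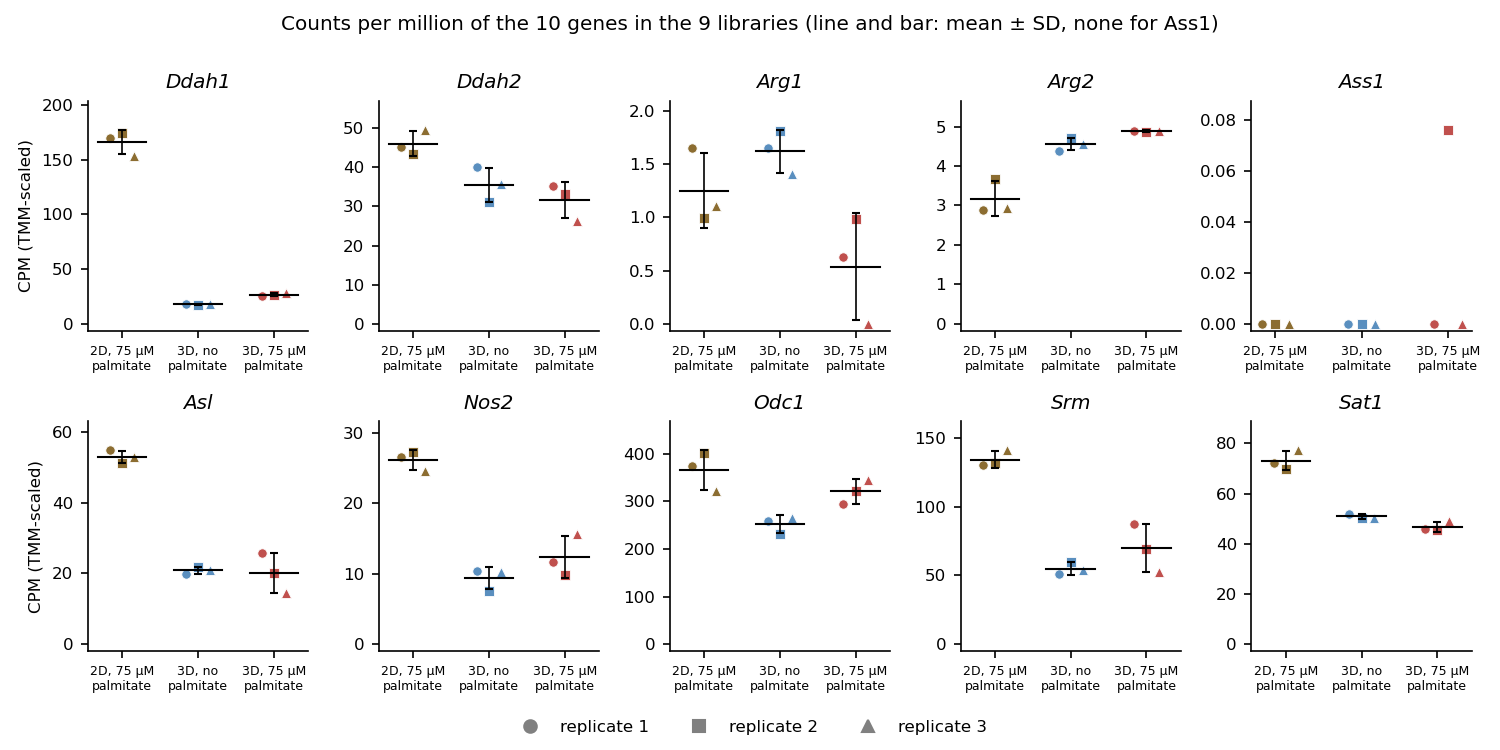
Levels of each gene in CPM (vertical axes, linear, TMM-scaled) in the 3 libraries of each condition (horizontal axis, 1 symbol per replicate), with lines at the mean and bars of 1 SD. Ddah1 lies between 153 and 174 in 2D and between 17.6 and 28.3 in 3D cultures, while Arg2 alone has its lowest values in 2D.

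Ddah1, the dimethylarginine hydrolase encoded on chromosome 3 from 145758675 to 145894277 on the plus strand, had the widest difference among the 9 tested genes of the list. It was counted at 170, 174 and 153 CPM in the 2D libraries, at 25.2, 26.2 and 28.3 CPM in the 3D libraries with palmitate and at 17.8, 17.6 and 18.6 CPM in the 3D libraries without it. The 3 conditions did not overlap, and the spread within each was small beside the distance between them. Means were 166 ± 11, 26.6 ± 1.59 and 18.0 ± 0.494 CPM (SD, n = 3). With palmitate, Ddah1 was thus 6.31-fold lower in spheroids than in monolayers, a log2 fold change of -2.66 with a standard error of 0.0744. With palmitate in 3D it was 1.46-fold higher, a log2 fold change of 0.55 with a standard error of 0.0812. The added palmitate thus went with a level that was higher than in 3D without it and still far below that of the 2D cultures. Leaving out each library in turn gave log2 fold changes of -2.71 to -2.62 for culture and 0.51 to 0.59 for palmitate.

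Ddah2, the paralog on chromosome 17 from 35059035 to 35062095, varied much less. Its levels were 45.2, 43.3 and 49.5 CPM in 2D, 35.2, 33.2 and 26.3 CPM in 3D with palmitate and 40, 31.1 and 35.6 CPM in 3D without it. The 2D libraries lay above all 3D libraries, and both 3D conditions overlapped. The log2 fold change was -0.51 (SE 0.106) for culture and -0.14 (SE 0.108) for palmitate. The order of the paralogs differed between the cultures. Per kilobase of exon (RPKM, CPM divided by exon length), Ddah1 had 41.7 ± 2.77 and Ddah2 28.9 ± 2.00 in 2D, whereas in 3D without palmitate Ddah1 had 4.52 ± 0.124 and Ddah2 22.3 ± 2.79, and in 3D with palmitate they had 6.67 ± 0.40 and 19.8 ± 2.92 (SD, n = 3). Ddah1 made up 60.2%, 61.7% and 55.3% of the summed per-kilobase level of the pair in the 2D libraries. It made up 15.1%, 18.5% and 17.3% in 3D without palmitate and 22.3%, 24.0% and 30.1% in 3D with it. The conditions did not overlap in this share. Neither gene shared a run of 50 bases, the read length, with another annotated gene.

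**Figure D2:**
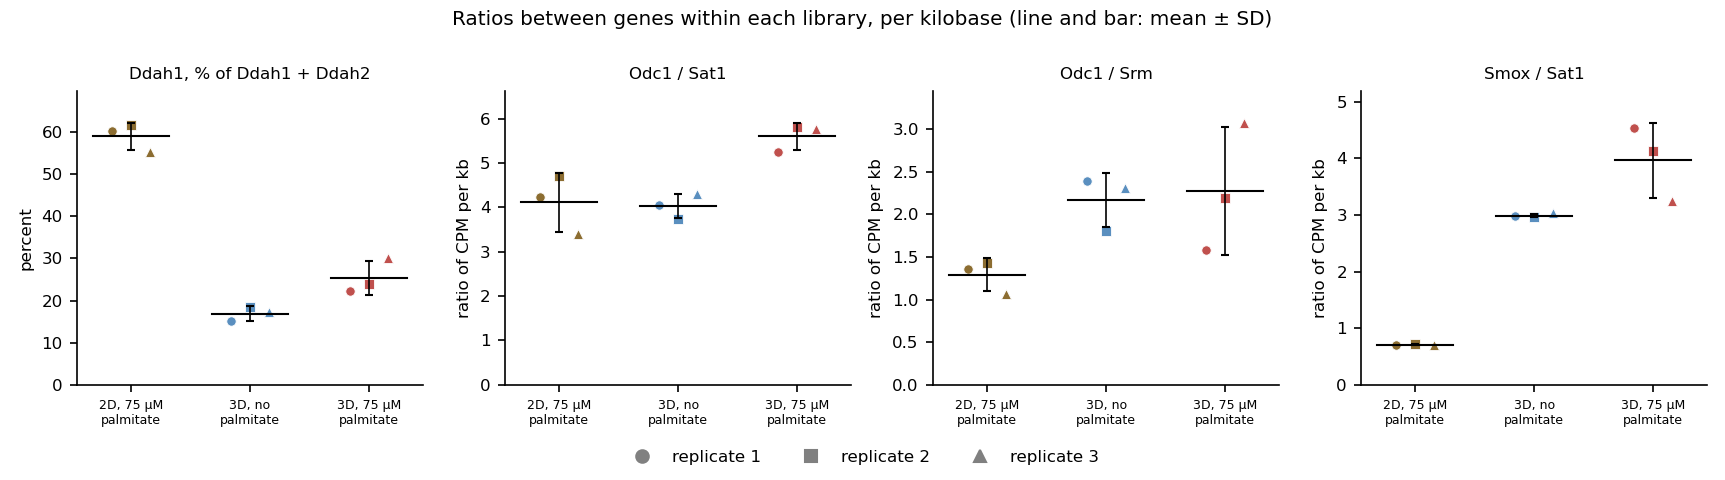
Ratios between genes within each library, from CPM per kilobase of exon (vertical axes from 0, percent in the first panel and a ratio in the others), for the 3 libraries of each condition, with lines at the mean and bars of 1 SD. Ddah1 makes up 55.3% to 61.7% of the Ddah1 and Ddah2 level in 2D and 15.1% to 30.1% in 3D cultures, and the Smox to Sat1 ratio is below 1 in 2D only.

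Nos2, the inducible nitric oxide synthase, which dimethylarginine inhibits, lies on chromosome 11 from 78920787 to 78960254. The 2D libraries had 26.5, 27.3 and 24.6 CPM, the 3D libraries with palmitate 11.6, 9.80 and 15.6 CPM and those without it 10.4, 7.56 and 10.3 CPM. All 2D libraries lay above all 3D libraries, and both 3D conditions overlapped. The log2 fold change for culture was -1.14 (SE 0.138), a 2.20-fold lower level in 3D. That for palmitate was 0.32 (SE 0.152) over all libraries and 0.20 without replicate 3 of the 3D cultures with palmitate, whose Nos2 level was the highest among the 3D libraries. Nos2 thus followed the same order of conditions as Ddah1 but with closer 3D levels. Nos2 is known in activated macrophages, and of the 5 leukocyte markers Cd68 was also lower in 3D, at 24.3 to 27.8 CPM in 2D and 6.18 to 11.1 CPM in 3D. Ptprc was higher in 3D, at 0.258 to 0.613 CPM against no more than 0.165 CPM in 2D, and the macrophage marker Adgre1 was at 0 in every library.

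In CPM, the arginases were the lowest of the 9 tested genes. Arg1, the cytosolic arginase on chromosome 10 from 24915221 to 24927484, had 0 to 35 counts in a library. Its levels were 1.65, 0.993 and 1.11 CPM in 2D, 0.626, 0.988 and 0 CPM in 3D with palmitate and 1.65, 1.81 and 1.41 CPM in 3D without it. The 3D libraries with palmitate were the lowest, and the other 2 conditions overlapped. The library at 0 was the smallest of all, in which 3 counts would have given 0.459 CPM. The log2 fold change was -0.88 (SE 0.407) for culture and -1.34 (SE 0.392) for palmitate, and -0.64 and -1.10 without that library. Arg2 is the mitochondrial arginase on chromosome 12 from 79130777 to 79156301. Among the tested genes of the list, it alone had a log2 fold change above 0 for culture. It was counted at 2.89, 3.68 and 2.94 CPM in 2D, at 4.89, 4.86 and 4.90 CPM in 3D with palmitate and at 4.39, 4.72 and 4.56 CPM in 3D without it. The 3D libraries lay above all 2D libraries, with a log2 fold change of 0.59 (SE 0.145) for culture and 0.10 (SE 0.141) for palmitate. These levels rest on 32 to 133 counts, and 21.2% of the 50-base runs of Arg2 occur in Vti1b or in an antisense gene that overlaps it, so its value is uncertain. Vti1b itself had 50.6 to 59.8 CPM.

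Argininosuccinate synthase and lyase act one after the other in rebuilding arginine, but the counts of their genes were far apart. Ass1, on chromosome 2 from 31470207 to 31520672, was listed with 1 count in replicate 2 of the 3D cultures with palmitate and 0 in the other 8 libraries. No fold change is given for it. Of its 50-base runs 38.6% also occur in Gm5424, which was listed at 0 in every library. A listing at 0 need not mean that a gene is silent in this table. Amd1 and Amd2, which encode the enzyme that supplies the aminopropyl group of polyamines, were listed at 0 in all 9 libraries and share 78.1% and 85.7% of their runs with other genes. Gapdh, picked after its values were seen, had only 3.63 to 11.2 CPM and shares 25.1%, while Actb had 2200 to 3660 CPM. Krt8 shares 29.7% and had 939 to 1560 CPM, and Pcbd1 shares none and had at most 4 counts. Whether shared runs lowered any of these counts was not tested. Asl, the lyase on chromosome 5 from 130011258 to 130029247, shares none. It was counted at 54.8, 51.2 and 52.9 CPM in 2D, at 25.8, 20.1 and 14.4 CPM in 3D with palmitate and at 19.9, 21.8 and 21 CPM in 3D without it. All 3D libraries lay below the 2D libraries, and those without palmitate lay inside the range of those with it. Asl was 2.48-fold lower in 3D with palmitate than in 2D, a log2 fold change of -1.31 (SE 0.127). For palmitate the log2 fold change was 0.03 (SE 0.135), with -0.22 and 0.16 as the lowest and highest values when each library was left out.

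**Figure D3:**
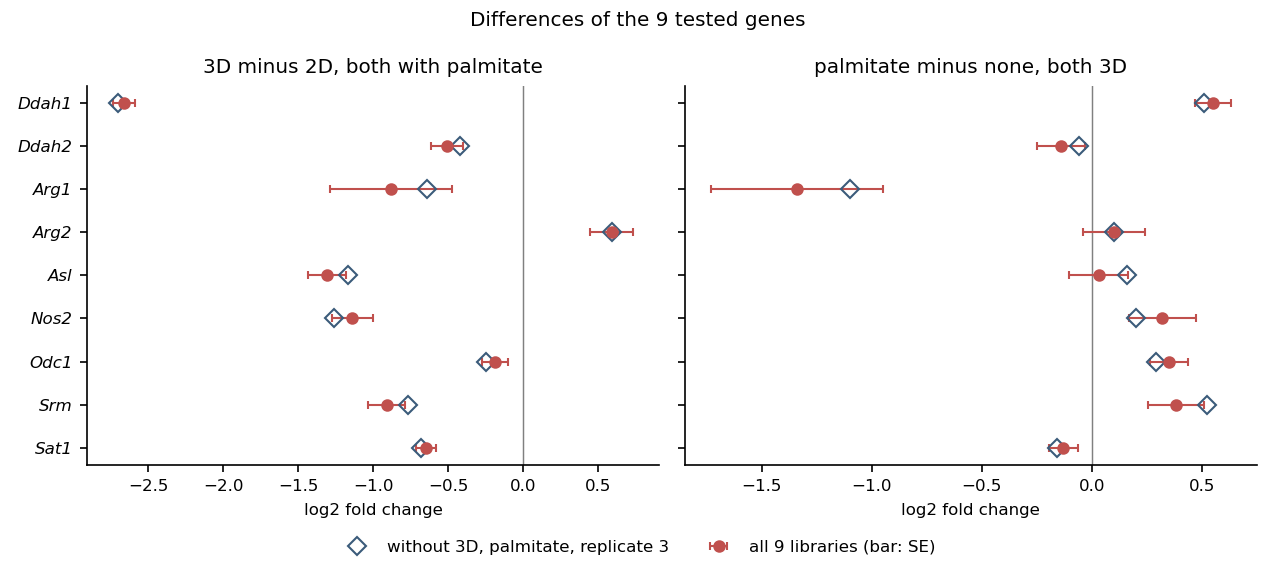
Log2 fold changes (horizontal axes) of the 9 tested genes for 3D against 2D cultures with palmitate (left) and for palmitate against none in 3D cultures (right), with bars of 1 standard error, and diamonds for the fit without replicate 3 of the 3D cultures with palmitate. Ddah1 is at -2.66 and 0.55, and Arg2 is the only gene above 0 on the left.

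Odc1 had the highest levels of the 10 genes, in CPM and per kilobase. It encodes ornithine decarboxylase, the first enzyme of polyamine synthesis, on chromosome 12 from 17544794 to 17551505. Its levels were 375, 402 and 321 CPM in 2D, 295, 323 and 345 CPM in 3D with palmitate and 259, 231 and 266 CPM in 3D without it. The 2D libraries and the 3D libraries with palmitate overlapped, and those without palmitate lay below both. The log2 fold change for culture was -0.19 (SE 0.0876) and that for palmitate 0.35 (SE 0.0880). Of the 50-base runs of Odc1, 24.3% occur in 16 other annotated genes, so its value is uncertain. Among the per-kilobase levels of the 10 genes together, Odc1 held 31.5% to 37.3% in 2D and 43.0% to 54.6% in 3D cultures.

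Srm, spermidine synthase on chromosome 4 from 148591503 to 148594993, acts on the product of Odc1. Levels were 130, 132 and 141 CPM in 2D, 87.4, 69.1 and 52.7 CPM in 3D with palmitate and 51.0, 59.9 and 54.1 CPM in 3D without it. The 2D libraries stood above all others. The 3D libraries with palmitate were widely spread, and the lowest of them, replicate 3, lay inside the range without palmitate. Log2 fold changes were -0.91 (SE 0.124) for culture and 0.38 (SE 0.128) for palmitate, the latter 0.52 without replicate 3. The ratio of Odc1 to Srm per kilobase was 1.29 ± 0.194 in 2D, 2.17 ± 0.312 in 3D without palmitate and 2.28 ± 0.751 in 3D with it (SD, n = 3). Both 3D conditions overlapped in this ratio and lay above 2D.

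Sat1, the acetyltransferase that opens the breakdown and export of spermidine and spermine, lies on the X chromosome from 155213132 to 155216449. Levels were 72.2, 69.6 and 77.2 CPM in 2D, 45.8, 45.4 and 48.9 CPM in 3D with palmitate and 52.0, 50.3 and 50.4 CPM in 3D without it. No condition overlapped another, and 3D with palmitate was the lowest. The log2 fold change was -0.65 (SE 0.0655) for culture and -0.13 (SE 0.0666) for palmitate. Where trends of the libraries with GC content and transcript length were removed, the difference for culture was -0.38, and that of Arg2 was 0.83 in place of 0.59. Odc1 and Sat1 had log2 fold changes of opposite sign with palmitate. The ratio of their per-kilobase levels was 5.24, 5.80 and 5.76 in 3D with palmitate, above the 4.06, 3.74 and 4.29 without it. In 2D with palmitate it was 4.23, 4.71 and 3.39.

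The order of levels was thus shared by part of the list. For Ddah1, Nos2, Odc1 and Srm the mean was highest in 2D, intermediate in 3D with palmitate and lowest in 3D without it, with neighbors apart in both steps for Ddah1 only. Ddah2 and Sat1 were also highest in 2D but lowest in 3D with palmitate, and only for Sat1 were both 3D conditions apart. Asl was highest in 2D, and its 3D conditions have no order, since the mean was 20.1 CPM with and 20.9 CPM without palmitate while the fitted log2 fold change was 0.03. Arg2 was lowest in 2D, and Arg1 was highest in 3D without palmitate, where it overlapped with 2D.

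The genes with profiles most like that of Ddah1 were Prss23, a serine protease gene, Npr3, a natriuretic peptide receptor, Amotl2, an angiomotin family gene, Rgs16, a regulator of G protein signaling, and Tgfb2, a transforming growth factor. Likeness was the Euclidean distance between log2 CPM profiles over the 9 libraries, each centred on its own mean. The distances were 0.273, 0.402, 0.479, 0.524 and 0.531, where the median over 12574 genes was 4.21. A gene with the same level in every library would lie at 4.19, the size of the centred profile of Ddah1. Prss23 had means of 95.2 CPM in 2D, 14.5 in 3D with palmitate and 10.3 in 3D without it, and Npr3 had 129, 21.2 and 13.6. The log2 fold changes of the 5 genes were -2.71 to -2.37 for culture and 0.33 to 0.61 for palmitate. That they lie near those of Ddah1 follows from the choice by distance. The likeness is a description over 9 libraries in 3 conditions, and it says nothing of shared function or control.

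**Figure D4:**
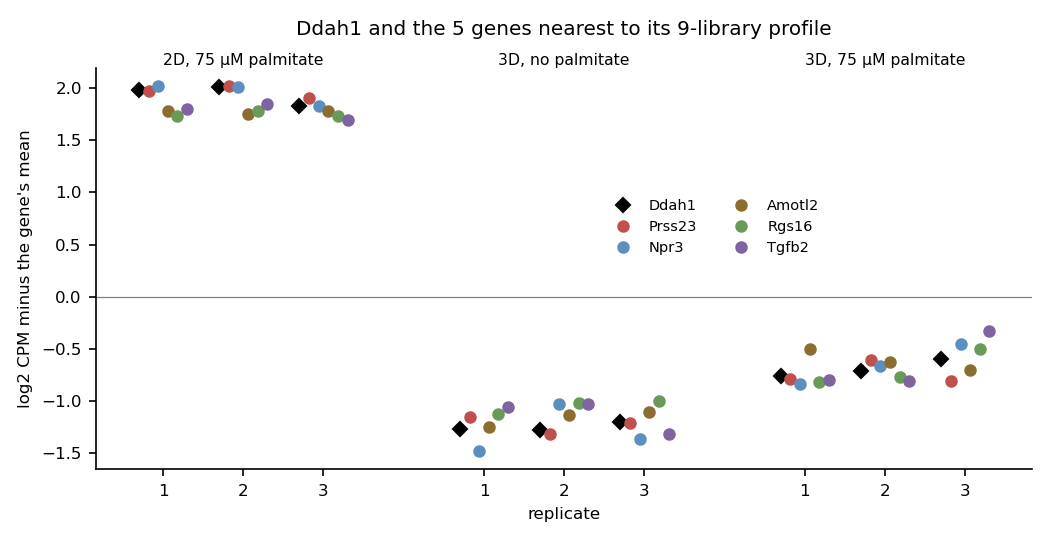
Log2 CPM minus the mean of the gene (vertical axis) for Ddah1 and the 5 genes nearest to its profile in the 9 libraries (horizontal axis, replicates by condition). All 6 genes are high in 2D and low in 3D cultures, with each gene's 3D mean with palmitate above that without it.

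The wider pathway was covered by 77 other genes on 7 lists, of which 60 were tested. Between 3D and 2D cultures with palmitate, 44 of the 60 were called, or 73.3%, near the 68.3% of all tested genes. Among them 16 were higher and 28 lower in 3D, and the median log2 fold change was -0.20, against 0.01 over all tested genes. Methyltransferases that make the methylarginines of proteins were mostly lower in 3D. Of the 8 tested genes of protein arginine methylation, 6 were called lower and 1 higher, where 33.9% and 34.5% of all tested genes were. Their median log2 fold change was -0.50. Prmt1, which makes most asymmetric dimethylarginine, fell from 264 ± 13.6 to 149 ± 19.4 CPM, a change of -0.81 on the log2 scale (adjusted p = 9.27e-07). Prmt5, which makes the symmetric form, changed by -0.59 (adjusted p = 5e-07) and Prmt7 by -1.08 (adjusted p = 8.7e-09).

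Of 9 tested genes on the list of arginine uptake and use, 5 were called lower and 2 higher in 3D, where 33.9% and 34.5% of all tested genes were. The higher ones were Slc7a1, with a change of 0.39 (adjusted p = 9.56e-05), and Ate1, with 0.32 (adjusted p = 0.0127). With GC and length trends removed these changes were 0.05 and 0.18. The carriers on this list are not confined to those of arginine itself. The fifth lower call, Slc7a7 (adjusted p = 0.0491), had overlapping groups and was kept in 2 of 9 fits with a library left out. Slc3a2, the heavy chain of several amino acid carriers, changed by -0.54 (adjusted p = 2.56e-05), and Slc7a6, a partner of it, by -0.74 (adjusted p = 6.21e-07). Rars, the arginyl-tRNA synthetase, changed by -0.80 (adjusted p = 2.57e-07). Of 11 tested genes around nitric oxide and its cofactor tetrahydrobiopterin, 3 were called higher and 5 lower. Gch1 rose from 8.45 ± 0.641 to 11.8 ± 1.68 CPM, a change of 0.55 (adjusted p = 0.00105). Pts changed by 0.28 (adjusted p = 0.0145), a call kept in 7 of 9 fits with a library left out. Nos1ap, with at most 22 counts, changed by 3.18 (adjusted p = 0.000597), kept in 8 of 9. The 5 lower calls included Qdpr, Gchfr and Nosip. Qdpr, which regenerates the cofactor, changed by -0.80 (adjusted p = 6.56e-07), Gchfr, the feedback regulator of its synthesis, by -0.70 (adjusted p = 0.000582) and Nosip, a protein that binds nitric oxide synthase, by -0.50 (adjusted p = 0.000146). Nos1 was below the filter on low counts, so that Nos2 had the most counts of the synthases, with Nos3 at 1.04 ± 0.236 CPM in 2D and 0.538 ± 0.140 in 3D with palmitate.

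Some genes that link arginine and ornithine to proline were lower in 3D. Of 9 tested genes of the urea cycle, ornithine and proline, 4 were called lower and 1 higher. That is 55.6% called, where 68.3% of all tested genes were, 33.9% lower and 34.5% higher. Nags, Cps1 and Otc of the urea cycle were below the filter. Aldh18a1, which makes the common precursor of proline and ornithine, fell from 324 ± 2.53 to 125 ± 9.06 CPM, a change of -1.37 on the log2 scale (adjusted p = 2.88e-10). Pycr1, the last step to proline, changed by -1.08 (adjusted p = 4.68e-06) and Prodh, which breaks proline down, by -1.24 (adjusted p = 1.04e-08). Of 4 tested creatine genes, Gatm, which uses arginine to make the creatine precursor, changed by -2.16 (adjusted p = 5.13e-05) at levels of 0.368 to 0.459 CPM in 3D with palmitate, where 3 counts gave up to 0.459 CPM. Slc6a8, the creatine carrier, changed by 0.23 (adjusted p = 0.0053).

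Polyamine genes were called in both directions, as were tested genes in general. Of 7 tested genes of polyamine synthesis 3 were called higher and 2 lower, and of 12 genes of breakdown, transport and use 5 were called higher and 5 lower. Of all tested genes 34.5% were called higher and 33.9% lower. Smox, spermine oxidase, rose from 72.5 ± 3.42 to 259 ± 34.9 CPM, a change of 1.84 on the log2 scale (adjusted p = 2.03e-10), while Sat1, the other entry to polyamine breakdown, was lower. The Smox to Sat1 ratio per kilobase was 0.707 ± 0.0117 in 2D, 2.99 ± 0.0315 in 3D without palmitate and 3.97 ± 0.664 in 3D with it (SD, n = 3). Atp13a4, a member of the polyamine-transporting ATPase family, changed by 3.85 (adjusted p = 6.38e-10) from 0.854 ± 0.161 CPM. Azin2, an antizyme inhibitor that spares Odc1, rose from 4.56 ± 0.456 to 14.8 ± 1.02 CPM, a change of 1.71 (adjusted p = 7.84e-09). Azin1, the other antizyme inhibitor on the list, rose from 332 ± 24.1 to 406 ± 40.8 CPM, a change of 0.29 (adjusted p = 0.00461). Mat2a, which makes the methyl donor, changed by 0.56 (adjusted p = 1.76e-06). Sms, spermine synthase, changed by -0.61 (adjusted p = 1.08e-05), next to -0.91 for Srm. Eif5a, the protein that carries the spermidine-derived residue hypusine, fell from 1230 ± 54.7 to 583 ± 52.3 CPM, a change of -1.07 (adjusted p = 6.35e-09). Sms shares 17.5% of its 50-base runs with other genes.

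**Figure D5:**
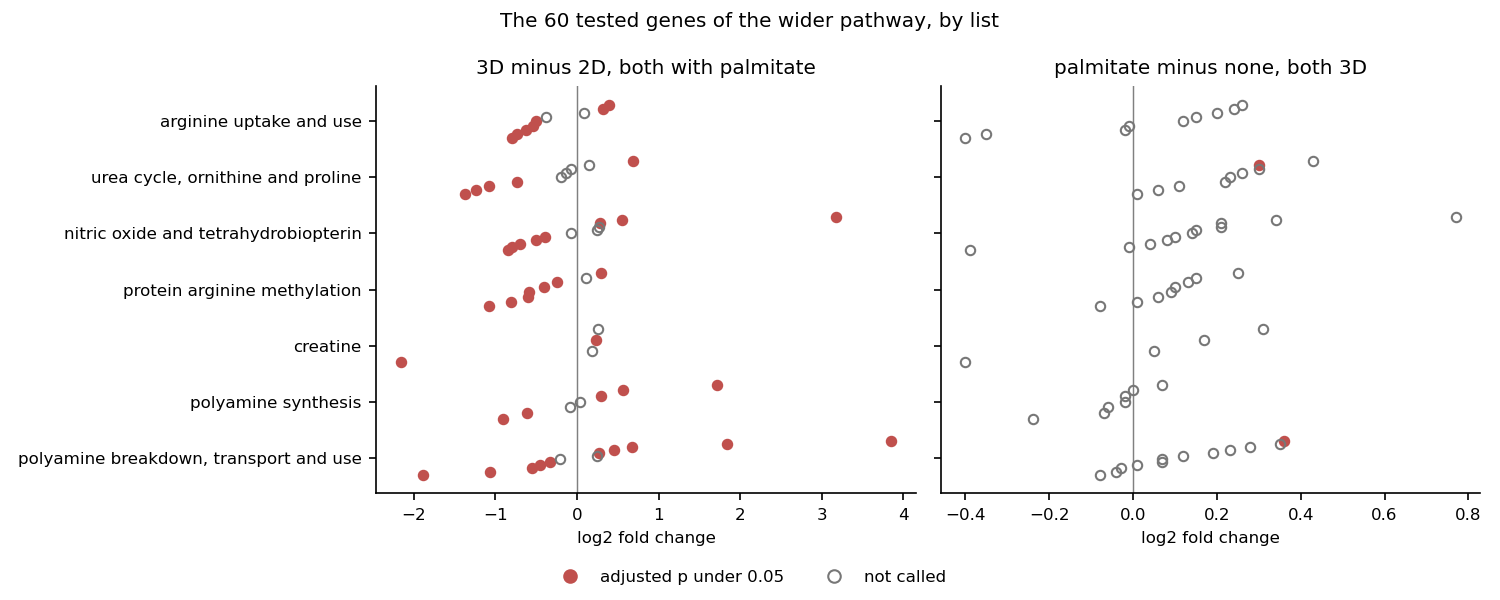
Log2 fold changes (horizontal axes) of the 60 tested pathway genes by list (vertical axis) for 3D against 2D cultures with palmitate (left) and palmitate against none in 3D cultures (right), filled where the adjusted p-value was under 0.05. On the left 44 genes are filled, 28 of them below 0, and on the right 2 are filled.

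With palmitate in 3D cultures, 2 of the 60 pathway genes were called, or 3.33%, where 2.19% of all tested genes were. Both were higher. Aldh18a1 rose from 101 ± 4.83 to 125 ± 9.06 CPM, a change of 0.30 on the log2 scale (adjusted p = 0.0329), and Dohh, which completes hypusine, from 37.6 ± 2.02 to 47.5 ± 5.73 CPM, a change of 0.36 (adjusted p = 0.0431). Dohh shares 45.3% of its 50-base runs with another gene. Of the 60 genes, 43 had a log2 fold change above 0, with a median of 0.10 against 0.01 over all tested genes. An unadjusted p under 0.05 was held by 18 of the 60 and by 2170 of all 12575 tested genes. DESeq2 also called 2. In edgeR no gene was called among the lists of arginine uptake and use, nitric oxide, protein arginine methylation, creatine and polyamine synthesis. Their genes with an unadjusted p under 0.05 were 4, 1, 2, 1 and 1, and DESeq2 called 0 in each. The 2 calls depended on the libraries. Without replicate 3 of the 3D cultures with palmitate, edgeR called 12 pathway genes, where it called 1901 of all 12787 tested genes. It called 0 pathway genes when any of the other 8 was left out, with 12 to 17 at an unadjusted p under 0.05. Among all tested genes, 1561 to 2135 had such a p in those 8 fits. No call was left in edgeR with scaling by library size only, with the 2 groups alone in the fit or with the Rn45s share as a covariate. In these fits 15, 15 and 8 pathway genes had an unadjusted p under 0.05, as did 2150, 1734 and 1288 of all tested genes. Smox had 259 ± 34.9 CPM with and 214 ± 4.45 CPM without palmitate, a difference of 0.28 on the log2 scale (adjusted p = 0.0943).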

How the data were processed

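RNA-seq was performed on 9 libraries of 4T1 cells. Per the labels and the paper's methods, poly(A) libraries were made with a stranded kit, single-end reads of 50 bases were inspected with FastQC (version 0.11.9), aligned to GRCm38 with HISAT2 (version 2.1.0) and counted with HTSeq. The annotation release and the strand setting are not given in the sources used here. The authors deposited raw counts per gene, without normalization. Library totals limit the precision of genes with few counts.

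The 10 genes and the pathway lists were chosen with earlier results of these data known. The analysis ran in R 4.3.3 and edgeR 4.0.16, with filterByExpr by condition, TMM scaling, and 1 quasi-likelihood fit of all 9 libraries with condition as the only term. Benjamini-Hochberg adjusted p-values under 0.05 over all tested genes were called. Standard errors were taken as the absolute log2 fold change over the square root of the F statistic. Of the pathway genes, up to 3 per list with the smallest p were named, among those called with no overlap between groups, and the 5 genes nearest to Ddah1. Prmt9 is Prmt10 in the table. Smox with palmitate, Nos3, Slc7a7, Vti1b, Gm5424, Actb and the genes listed at 0 were named after their values were seen. The same holds for Slc7a1, Ate1, Gch1, Pts, Nos1ap, Azin1 and Pcbd1. Exon lengths, shared 50-base runs and coordinates are from GENCODE M21 (GRCm38), for 24042 genes.

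Alternatives were RLE scaling, library size only, no filter, a minimum of 10 counts in every library, a fit of the 2 compared groups only, a block on replicate number, DESeq2 (version 1.42.0), a log2 fold change of at least 0.5, and leaving out each library. Removal of GC and length trends and the share of Rn45s as a covariate were added after seeing the data. Same-numbered libraries of different conditions did not deviate together (correlations of -0.24 to 0.15), so the numbers were not taken to pair them. The steps were tested on simulated counts.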

Additional observations from a re-analysis of the deposited data

How the results depend on the processing

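Of 322 values of the 10 genes under the alternatives, 320 moved by less than the replicate spread, and the other 2, Arg2 and Sat1 in 3D against 2D cultures, moved with GC and length trends removed. For the fits with a library left out this says little. Leaving out 1 of 3 libraries moves the mean of a condition by less than its SD. No called value turned its direction. The difference of Asl with palmitate, which was not called, lay on both sides of 0, from -0.22 to 0.16. Of 395 values of named pathway genes, 370 kept their side of the threshold and 25 lost it. All 25 were values of Aldh18a1 and Dohh with palmitate, and none was for 3D against 2D cultures. Each of these 2 genes was called with palmitate in only 1 of 9 fits with a library left out. The count for 3D against 2D cultures, 8594 genes, was 5113 at a log2 fold change of at least 0.5. The number that differed with palmitate, 275, was 982 with GC and length trends removed, 617 without a filter, 119 at a log2 fold change of at least 0.5, 77 with the 2 groups alone and 44 with the Rn45s covariate. It ranged from 71 to 1901 with each library left out, the highest without 3D palmitate replicate 3. With library size only, 106 were higher and 121 lower with palmitate, in place of 173 and 102. With the replicate number as a block, which the data do not pair, edgeR called 111 genes and 0 pathway genes with palmitate. There 17 pathway genes and 1792 of all tested genes had an unadjusted p under 0.05. The block moved no other count by more than 1.5 times. The 2 pathway genes called with palmitate were 11 with GC and length trends removed and 1 with at least 10 counts in every library. They were 0 with library size only, the 2 groups alone, the Rn45s covariate or a log2 fold change of at least 0.5 in edgeR. Of the pathway genes 15, 15, 8 and 18 then had an unadjusted p under 0.05, as did 2150, 1734, 1288 and 2170 of all tested genes. The pathway genes called ranged from 0 to 12 with each library left out. The cause of these shifts was not tested.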
